A study of Citrus sinensis with 12 samples.

Results

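The copper by pH interaction in sweet orange roots is the part of the response that simple addition leaves over. It was measured in all 12 libraries of the series, 3 for each combination of pH 3 or pH 4.8 with 0.5 or 300 µM CuCl2. For each gene the copper difference at pH 4.8 was subtracted from the copper difference at pH 3, which gives the same value as the observed level with both treatments minus the level that the separate differences would add up to. A gene was tested when the mean of any group reached 1 FPKM, which held for 19204 of the 20122 listed.

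The plants were Citrus sinensis seedlings treated for 17 weeks, and a library came from the pooled frozen roots of 4 seedlings, each from its own pot. No genotype or rootstock is given in the labels. The groups are called here control (pH 4.8, 0.5 µM copper), low pH alone (pH 3, 0.5 µM), copper alone (pH 4.8, 300 µM) and both treatments (pH 3, 300 µM). Levels are in FPKM, a fragment count divided by gene length and library depth. The spacing of low values gave a depth of 17710000 to 22780000 fragments per library. At that depth, 3 fragments on 1 kb came to 0.132 to 0.169 FPKM, the floor used here, which takes in no error beyond counting.

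Copper is a micronutrient that works in electron transport and in enzymes that handle oxygen, and in excess it injures roots first, through oxidation of membranes and proteins and by displacing other metals. Protons at low pH act on the same surface: they depolarise the plasma membrane, loosen the cell wall and compete with metal ions for binding sites. A root under both stresses therefore need not respond as the sum of the separate responses, which is the question an interaction addresses.

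The files give identifiers and positions without gene names or functions, and 0 of the identifiers were found in the RefSeq gene table for the species (assembly DVS_A1.0). Each gene therefore appears under its identifier, with coordinates on the authors' annotation, whose build is not given in the sources used here, and no role is stated for any of them. Loci without an annotated identifier are called assembled loci. The label of root tissue could not be checked against marker genes for the same reason. In bulk roots, fewer cells of a type and less RNA per cell cannot be told apart, which holds for every level below.

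Both treatments together gave smaller differences from control than their separate differences add up to, a description without a test. After the part due to spread among libraries was subtracted, the root mean square difference from control over all tested genes was 0.406 log2 units for low pH alone and 0.682 for copper alone. Their sum, gene by gene, came to 0.932, against 0.731 observed with both treatments. The same control libraries enter each of these values. The departure itself, observed minus sum, had a root mean square of 0.588. Of the sum of squares between groups, copper held 52.2%, pH 32.0% and the interaction 15.8%.

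**Figure D1:**
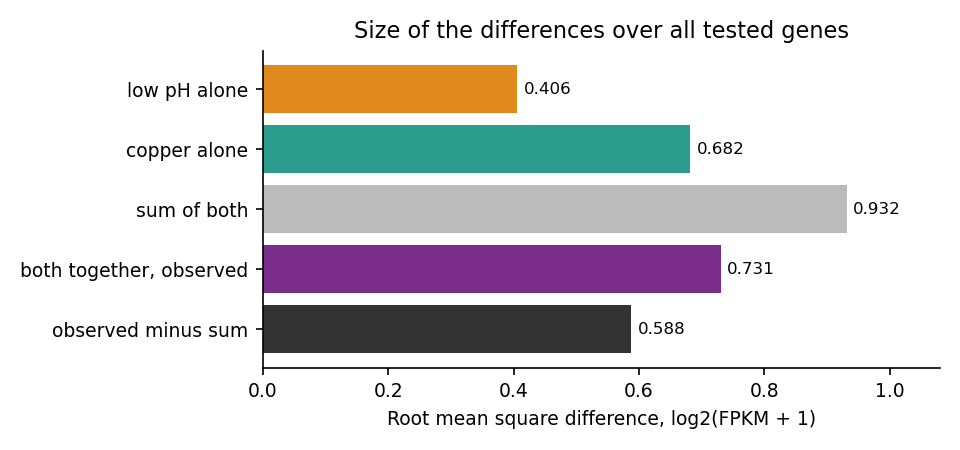
Root mean square difference from the control group over 19204 genes on the log2(FPKM + 1) scale (horizontal axis) for low pH alone, copper alone, the sum of both, both treatments as observed, and the observed value minus the sum. The observed bar (0.731) is shorter than the sum (0.932).

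Calls were made in limma at 0.05 after Benjamini-Hochberg adjustment across the tested genes. By this rule 3991 genes, or 20.8%, departed from additivity. Of these, 2225 (11.6% of tested) lay above the additive level and 1766 (9.2%) below it. Which side was larger depended on the scaling between libraries, with 1922 above and 2068 below under quantile normalization. Large departures lay mostly above: 862 against 543 at a size of at least 1 log2 unit, 238 against 47 at 2 and 87 against 2 at 3. These sides held under quantile normalization (773 and 608, 229 and 49, 85 and 2) and median scaling (786 and 593, 231 and 51, 84 and 2). Departures of at least 1 were 7.32% of tested genes. A level cannot fall below 0 FPKM, and for 192 called genes the additive level did. All 192 lay above it, and 84 of them were among the 238. With the additive level held at 0 instead, 131 of the 161 such genes with a size of at least 1 still reached that size. Larger sizes were not checked in this way. Of the 45 genes called at least 4 log2 units above the additive level, 30 had that level under 0 FPKM. Without each library in turn, 2807 genes (70.3% of the 3991) were called every time.

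**Figure D2:**
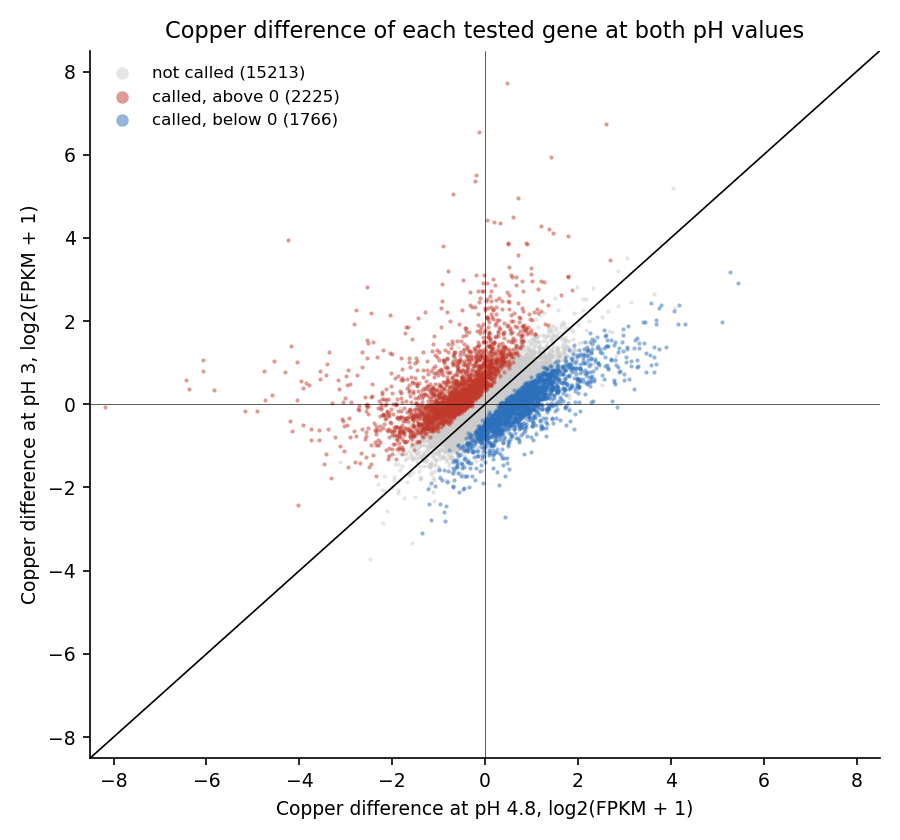
Copper difference at pH 4.8 (horizontal axis) and at pH 3 (vertical axis) of each tested gene, both in log2(FPKM + 1) units, with genes called in the interaction in red (2225, above 0) or blue (1766, below 0) and the others in grey. The diagonal is an equal copper difference at both pH values, and red points reach farther from it than blue ones.

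Genes that were not called are not shown to be additive. The 95% confidence interval of an interaction value reached 0.399 log2 units to either side in the median. For 4516 of the 15213 uncalled genes the whole interval lay within 0.5 of additivity, and for 1947 it reached 1 or more.

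The forms of the interaction followed from the copper calls at each pH, which cover 36.3% of tested genes at pH 3 (20.6% higher, 15.7% lower) and 52% at pH 4.8 (25.5% higher, 26.5% lower). The interaction shares its libraries with both calls, so the classes below describe its forms and are no separate evidence. The same patterns were not counted over all tested genes, so the larger counts at pH 4.8 are not shown to be particular to the interaction. Copper was called at pH 4.8 and not at pH 3 for 1697 genes, of which 957 were lower and 740 higher. At pH 3 and not at pH 4.8 it was called for 824, of which 533 were higher and 291 lower. Another 1030 genes changed in the same direction at both pH values, 797 more at pH 4.8 and 233 more at pH 3. Copper acted in opposite directions for 402 genes, 254 of them higher at pH 3 and lower at pH 4.8. The remaining 38 were called at neither pH, and none of these was called in every fit that left out a library.

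**Figure D3:**
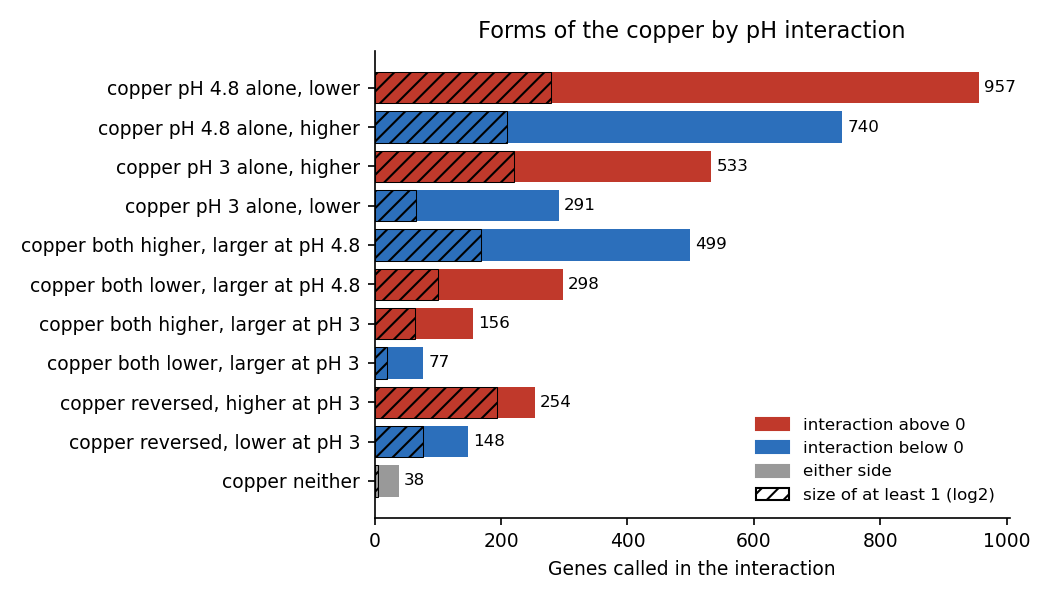
Number of genes called in the interaction (horizontal axis) by the direction of the copper difference and the pH at which it was called or was larger. Red bars hold genes above the additive level and blue bars genes below it, hatched parts have a size of at least 1 log2 unit, and the longest bar is the 957 genes that copper lowered at pH 4.8 with no call at pH 3.

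Departures were larger in the reversed class that copper raised at pH 3. Its median interaction was 1.59 and 194 of its 254 genes reached a size of 1. The rule for the reversed classes itself favours a large size. It asks for called copper differences of opposite sign, and their sizes add in the interaction. In the other classes apart from the 38 genes called at neither pH, the median size ran from 0.73 to 1.01. The median copper difference was 0.62 at pH 3 and 1.47 at pH 4.8 among the 499 genes raised at both and more at pH 4.8. Among the 298 lowered at both and more at pH 4.8, it was -0.56 and -1.40.

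Each called gene was also placed by the group whose mean lay farthest from the mean of the other 3 groups. Copper alone was that group for 1717 called genes (43.0%), against 30.6% of all tested genes. It lay below the others for 995 of them (24.9% of called, against 14.8% of tested) and above for 722 (18.1%, against 15.9%). Control was farthest for 1009 genes (25.3%, against 31.5% of tested), both treatments for 939 (23.5%, against 24.4%) and low pH alone for 326 (8.17%, against 13.5%). Where both treatments stood farthest, they were above the rest for 687 genes (17.2% of called, against 12.8% of tested) and below for 252 (6.31%, against 11.6%). The mean with both treatments was the highest of the 4 for 1158 called genes (29.0%, against 24.7% of tested), the lowest for 652 (16.3%, against 27.4%) and between the others for 2181 (54.7%, against 47.9%).

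Genes named below are the 2 with the largest interaction in each class among those that reached 5 FPKM in the mean of the highest group and were called in every fit without a library. Values per library are in FPKM, in the order of replicates 1, 2 and 3. The additive expectation was formed on the log2(FPKM + 1) scale and turned back into FPKM.

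The first pair was raised by copper at pH 3 and lowered by it at pH 4.8. Cs4g02690, on chromosome 4 from 1254521 to 1255539, stood at 52.06, 52.30 and 76.93 FPKM in control and at 6.80, 15.84 and 21.04 with low pH alone. Copper alone left 1.97, 2.01 and 2.55 FPKM, and both treatments gave 233.91, 175.46 and 261.82. No libraries of different groups overlapped: either treatment alone gave less than control, and both together gave more. Its interaction was 8.21 (SE 0.42, limma adjusted p = 1.8e-07), with an additive level under 0 FPKM. Cs9g08680, on chromosome 9 from 5841503 to 5841831, was at 100.19, 89.67 and 149.01 in control, 24.67, 44.51 and 60.37 with low pH alone, 0.78, 0.69 and 0.52 with copper alone and 85.79, 67.13 and 109.66 with both. Copper alone nearly emptied it, while with both treatments the libraries overlapped control (interaction 7.13, SE 0.39, limma adjusted p = 2.5e-07). Its additive level also lay under 0 FPKM, and the value was 8.27 at a pseudocount of 0.1.

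In the opposite pair copper raised the level at pH 4.8 and lowered it at pH 3. Cs3g14240 (chromosome 3, 18641380 to 18646722) had 29.77, 20.13 and 28.41 FPKM in control, 88.26, 86.01 and 91.08 with low pH alone, 94.20, 106.09 and 99.43 with copper alone and 56.48, 60.53 and 57.54 with both. Each treatment alone gave more than either control or both treatments, with no overlap. Addition would give 336 FPKM (interaction -2.51, SE 0.16, limma adjusted p = 8.2e-07). The gene orange1.1t01610, on unplaced sequence from 26750683 to 26752296, showed the same order at 11.09, 7.80 and 9.17, then 33.76, 29.65 and 34.10, then 34.87, 32.94 and 31.82, and 22.93, 29.90 and 16.68 FPKM with both. Its interaction was -2.24 (SE 0.24, limma adjusted p = 3.3e-05), although its libraries at pH 3 overlapped between copper levels by replicate 2, and the copper difference at pH 3 was small at -0.51 (SE 0.17, limma adjusted p = 0.032).

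The next pair was lowered by copper at pH 4.8, with no copper call at pH 3. The gene orange1.1t05521 spans 176 bp of unplaced sequence (87539307 to 87539482) and was listed at 0 in all 3 libraries with copper alone. It was at 235.43, 208.22 and 487.49 FPKM in control, at 196.02, 331.76 and 319.72 with low pH alone and at 338.37, 146.59 and 365.99 with both. The 3 groups other than copper alone overlapped, and no fold change is given against a group listed at 0 (limma adjusted p of the interaction 5.3e-07). Cs2g06910 (chromosome 2, 4045764 to 4046409) kept 0.00, 0.10 and 1.32 FPKM with copper alone, against 90.22, 100.34 and 177.18 in control, 56.47, 91.77 and 88.26 with low pH alone and 149.97, 70.27 and 150.15 with both. Its interaction of 7.02 (SE 0.52, limma adjusted p = 2e-06) depends on levels close to 0 with copper alone. At a pseudocount of 0.1 it was 9.18, and the additive level of both genes lay under 0 FPKM.

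Copper raised the next pair at pH 4.8 with no call at pH 3, and in both genes low pH alone also stood above control. In orange1.1t05560 (unplaced, 87941310 to 87941945) the level was 13.33, 11.94 and 6.85 FPKM in control and 46.33, 24.45 and 57.55 with low pH alone. It was 69.69, 73.94 and 102.28 with copper alone and 27.43, 51.90 and 40.91 with both, so at pH 3 the copper levels overlapped. Addition would give 297 FPKM (interaction -2.91, SE 0.44, limma adjusted p = 0.00047). Cs8g09790 (chromosome 8, 8411539 to 8412991) went from 6.95, 2.61 and 6.15 in control to 19.12, 14.14 and 17.63 with low pH alone and 57.90, 45.05 and 58.91 with copper alone, and stood at 18.27, 24.63 and 23.61 with both. Both treatments thus gave less than copper alone in every library, where addition would give 164 FPKM (interaction -2.84, SE 0.34, limma adjusted p = 8.5e-05).

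Copper raised the next pair at pH 3 and was not called at pH 4.8, and the genes lie next to each other on chromosome 3. The assembled locus from 767533 to 768050 had 356.89, 723.52 and 551.43 FPKM with both treatments. In control it had 0.51, 0.13 and 12.88, with low pH alone 0.25, 4.41 and 1.25 and with copper alone 4.46, 1.29 and 4.10. The groups other than both treatments overlapped and varied widely within themselves, so the interaction of 7.25 has an SE of 1.1 (limma adjusted p = 0.00048). Its neighbour Cs3g01585 (770541 to 771107) followed the same pattern at 78.96, 166.89 and 129.70 FPKM with both treatments and at most 4.44 in any other library (interaction 6.69, SE 0.77, limma adjusted p = 6e-05). Control replicate 3 was the highest library outside the group with both treatments at each of these neighbours.

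In the pair that copper lowered at pH 3 with no call at pH 4.8, low pH alone stood high and both treatments overlapped control. Cs1g19920 (chromosome 1, 23077109 to 23077600) had 4.52, 6.66 and 5.98 FPKM in control, 32.59, 40.51 and 39.64 with low pH alone, 6.37, 11.28 and 6.98 with copper alone and 3.86, 7.72 and 3.71 with both. Low pH alone stood apart from the other groups, and the additive level was 50.8 FPKM (interaction -3.15, SE 0.34, limma adjusted p = 3.7e-05). Cs1g05680 (chromosome 1, 5483122 to 5485859) likewise had 64.95, 69.74 and 86.48 with low pH alone and 10.40 to 32.19 FPKM in the 9 other libraries (interaction -2.23, SE 0.38, limma adjusted p = 0.0011).

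Among genes raised at both pH values, Cs7g01050 (chromosome 7, 36794 to 37597) rose more at pH 4.8. It was at 6.12, 6.92 and 9.23 FPKM in control, 69.50, 55.44 and 41.16 with low pH alone, 265.91, 291.96 and 304.56 with copper alone and 164.64, 278.98 and 225.26 with both. The last pair of groups overlapped, far under the additive level of 1910 FPKM (interaction -3.12, SE 0.29, limma adjusted p = 1.1e-05). Cs8g19970 (chromosome 8, 21920473 to 21922014) was at 3.59, 3.63 and 4.61 in control, 25.90, 25.60 and 18.64 with low pH alone, 67.55, 55.84 and 57.96 with copper alone and 26.89, 47.64 and 50.73 with both. Its additive level was 299 FPKM (interaction -2.86, SE 0.29, limma adjusted p = 2.1e-05), and with both treatments it remained under every library with copper alone.

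The reverse, a larger rise at pH 3, was led by Cs5g21860 on chromosome 5 (24360056 to 24361268). Both treatments gave 691.29, 1050.49 and 729.20 FPKM, against 44.68, 29.36 and 40.30 with copper alone, 13.56, 11.61 and 11.31 with low pH alone and 12.22, 10.09 and 19.03 in control. Low pH alone overlapped control, and the additive level of 34.3 FPKM lay close to that of copper alone (interaction 4.52, SE 0.30, limma adjusted p = 9.7e-07). The assembled locus from 24366991 to 24367516 of the same chromosome reached 35.33, 29.83 and 43.88 FPKM with both treatments and 1.93 at most elsewhere (interaction 4.25, SE 0.35, limma adjusted p = 4.5e-06). Its copper difference at pH 4.8 was called on overlapping libraries near the floor (0.71, SE 0.25, limma adjusted p = 0.028).

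The pair lowered at both pH values and more at pH 4.8 kept more of its level with both treatments than with copper alone. Cs7g32150 (chromosome 7, 31874290 to 31876464) had 41.04, 40.85 and 38.32 FPKM in control, 39.84, 40.22 and 32.37 with low pH alone, 1.25, 0.91 and 1.88 with copper alone and 24.40, 25.24 and 20.76 with both (interaction 3.50, SE 0.20, limma adjusted p = 3.2e-07). It overlaps Cs7g32160 on the other strand, and no source used here states a strand setting, so reads of the pair cannot be told apart. Cs3g21660 (chromosome 3, 24497006 to 24499262) had 213.22, 237.25 and 250.98 in control, 167.02, 201.42 and 189.88 with low pH alone, 15.76, 15.90 and 17.77 with copper alone and 114.15, 130.89 and 121.97 with both. No groups overlapped, and both treatments gave 122 FPKM where addition would give 12.9 (interaction 3.15, SE 0.13, limma adjusted p = 8.8e-08).

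The last pair fell under copper at both pH values and more at pH 3, where low pH alone was the highest group. Cs1g25570 (chromosome 1, 27875066 to 27876906) had 29.84, 28.42 and 30.05 FPKM in control, 145.65, 117.58 and 149.08 with low pH alone, 11.59, 19.90 and 17.06 with copper alone and 16.26, 32.84 and 12.10 with both. The copper-treated groups overlapped (interaction -1.95, SE 0.38, limma adjusted p = 0.0029). In Cs6g14070 (chromosome 6, 15428280 to 15429338) low pH alone gave 95.69, 78.24 and 95.13 FPKM against 29.43 to 36.09 in control and 5.31 to 15.40 in the copper-treated libraries (interaction -1.74, SE 0.35, limma adjusted p = 0.0034).

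**Figure D4:**
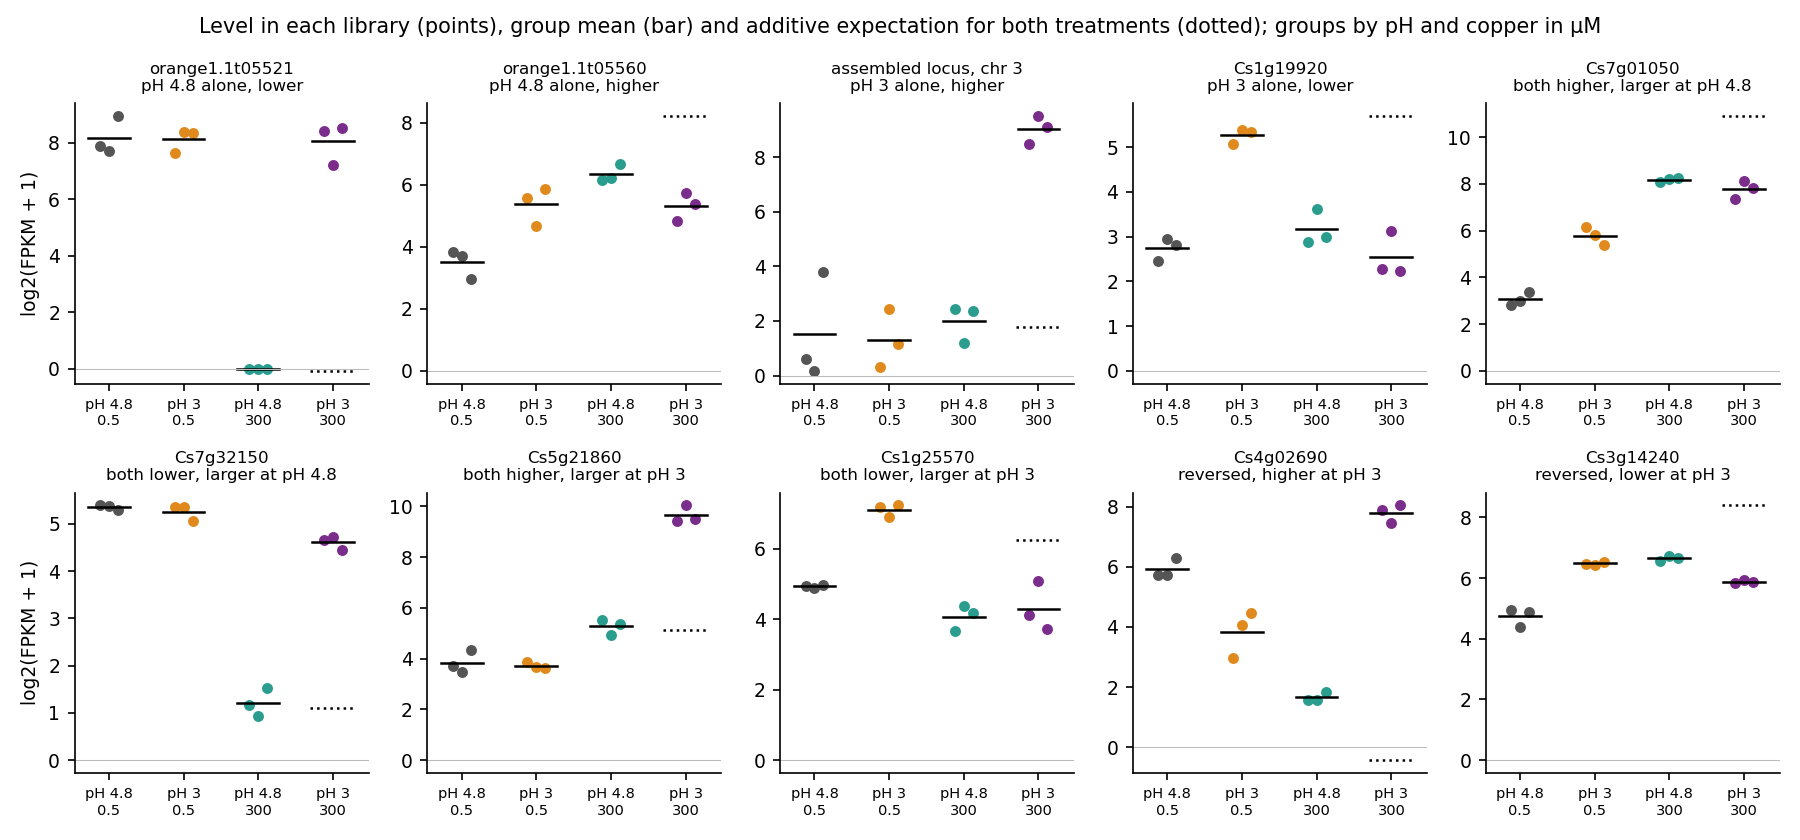
Level of 1 named gene from each of 10 classes in log2(FPKM + 1) (vertical axis) in the 4 groups (horizontal axis: pH, then µM copper); points are libraries, bars group means and the dotted line the additive expectation for both treatments. For Cs4g02690 the libraries with both treatments lie above the dotted line by 8.21, and for Cs7g01050 they lie below it by 3.12.

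Abundant genes were called more often, and short genes held more large departures, both as descriptions without a test. Of 1132 genes averaging 100 FPKM or more over the libraries, 354 were called (31.3%, against 20.8% of all tested), 148 above and 206 below the additive level, with a median size of 0.68. Of 6963 genes under 5 FPKM, 1144 were called (16.4%), 768 above and 376 below, with a median size of 1.00. These medians are over called genes, and the share of tested genes called with a size of at least 1 was alike at both ends, at 8.26% under 5 FPKM and 8.22% at 100 FPKM or more, with 6.63% between. The larger side of the highest and of the lowest class held under quantile normalization (144 and 233, 640 and 447) and median scaling (120 and 217, 689 and 441). In the class between, 1309 lay above and 1184 below, and the larger side changed under both scalings. A departure of at least 1 was called for 14.5% of the 1945 genes that span under 1 kb, 10.2% of those from 1 to 3 kb, 4.22% of those from 3 to 6 kb and 2.56% of the 2856 longer ones. Level moved with span, at a median of 4.42 FPKM for the shortest class and 11.02 for the longest, and the part of level in this order was not tested.

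Of 1321 assembled loci 17.7% were called, against 21.3% of the 15316 annotated genes on chromosomes, and 10.2% were called with a size of at least 1, against 6.94%. These shares were not tested against each other. By chromosome the called share ran from 19.3% on chromosome 7 to 23.5% on chromosome 9, with 18.8% on unplaced sequence.

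Neighbouring genes departed to the same side more often than genes at large. Of 2223 genes called above additivity, the next tested gene along the sequence was also called above for 401 (18.04%), against 11.6% over all next genes, and below for 140 (6.30%). Of 1764 called below, the next gene was below for 264 (15.0%), against 9.19%, and above for 178 (10.1%). These shares are a description without a test. They include unplaced sequence (553 called of 2949 tested genes), taken as 1 sequence in the order of its coordinates. Neighbours there may not adjoin in the genome. Copies of a gene that lie side by side can share reads in such counts, and how similar the neighbours are in sequence was not examined. Overlapping loci, and assembled loci beside an annotated gene, were not set apart in these shares either. In 27 places at least 3 neighbours in a row were called to the same side with a size of at least 1, 84 genes in all, 17 runs above and 10 below. Of these runs, 3 lie on unplaced sequence. Neighbours follow the order of tested genes, so genes that were not tested or not listed may lie between them. The number of runs depended on the settings, with 45 at a pseudocount of 0.1 and 13 in a test of interactions larger than 0.5 (limma treat). The runs described next were chosen after their values were seen.

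The run around Cs5g21860 covers 17.6 kb of chromosome 5 and holds 4 genes. After Cs5g21860 and the assembled locus described above comes another assembled locus (24368952 to 24369594), with 25.61, 51.36 and 42.66 FPKM with both treatments and at most 2.53 in the 9 other libraries (interaction 4.39, SE 0.40, limma adjusted p = 1.1e-05). Cs5g21870, at the far end (24376403 to 24377606), had 5.82, 8.99 and 8.32 FPKM with both treatments and at most 3.09 elsewhere (interaction 1.76, SE 0.36, limma adjusted p = 0.0037). All 4 neighbours were thus highest in the group with both treatments, at levels that differed widely.

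Cs4g02690 also stood in a run, over 10.2 kb of chromosome 4, but its neighbours did not share its fall under copper alone. Cs4g02670 (1245320 to 1246770) had 0.55, 0.50 and 0.56 FPKM in control, 1.62, 1.03 and 1.43 with low pH alone, 4.64, 1.85 and 3.74 with copper alone and 28.51, 44.75 and 48.73 with both (interaction 2.65, SE 0.34, limma adjusted p = 0.00012). Cs4g02680 (1251828 to 1253226) had 5.98, 6.30 and 8.13 with both and at most 0.73 elsewhere (interaction 2.14, SE 0.23, limma adjusted p = 3.7e-05).

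A run of 26.0 kb on chromosome 3 holds Cs3g20640, Cs3g20650 and Cs3g20680 (23664565 to 23690592). Cs3g20650 had 0.15, 0.16 and 0.71 FPKM in control, 2.65, 2.25 and 2.69 with low pH alone, 0.20, 0.31 and 0.91 with copper alone and 23.25, 29.54 and 15.64 with both (interaction 2.58, SE 0.33, limma adjusted p = 0.00014). With both treatments Cs3g20640 reached 5.83, 6.48 and 5.72 FPKM against at most 0.65 elsewhere, and Cs3g20680 reached 15.95, 24.42 and 15.15 against at most 1.47. On chromosome 8, Cs8g13740 (16493767 to 16494733) had 187.47, 335.64 and 249.28 FPKM with both treatments and 2.12 to 8.37 in the other libraries (interaction 5.58, SE 0.51, limma adjusted p = 1.1e-05). It ends a run of 74.6 kb that begins with Cs8g13710, at 78.55, 117.35 and 64.47 FPKM with both and 2.76 to 15.11 elsewhere.

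A run of 36.1 kb on chromosome 7 showed near loss under copper alone. Cs7g05270 (2789430 to 2790760) was listed at 0.00, 0.00 and 0.48 FPKM with copper alone, against 56.66, 47.67 and 98.74 in control, 48.04, 84.99 and 81.71 with low pH alone and 117.42, 54.86 and 106.01 with both (interaction 6.18, SE 0.45, limma adjusted p = 1.9e-06). Its neighbour Cs7g05280 (2806611 to 2808009) was at 0.00, 0.00 and 0.29 with copper alone and at 6.58 to 24.47 in the other libraries (interaction 4.38, SE 0.48, limma adjusted p = 4.1e-05). These fitted values depend on the pseudocount, as levels with copper alone were at or near 0. Cs7g05240, the first gene of the run, differed: copper alone left 2.1, 2.22 and 3.41 FPKM, and both treatments gave 12.51, 8.70 and 8.74, above all others.

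A run below the additive level on chromosome 1 held genes that stood above control under each treatment alone. Cs1g20290 (chromosome 1, 23392917 to 23393520) had 4.31, 2.15 and 3.63 FPKM in control, 18.78, 14.14 and 12.12 with low pH alone, 35.66, 22.93 and 43.36 with copper alone and 16.17, 30.90 and 22.63 with both. Cs1g20300 (23395666 to 23396442) had nearly the same levels, at 3.77, 2.83 and 5.20, then 16.43, 16.59 and 12.93, then 32.25, 25.36 and 42.76, and 16.59, 33.85 and 18.01 FPKM with both. Their interactions were -2.42 (SE 0.38, limma adjusted p = 0.00062) and -2.32 (SE 0.36, limma adjusted p = 0.00058). On chromosome 5, Cs5g31010 (32763815 to 32764878) stood at 17.60, 13.25 and 21.56 FPKM in control, 39.67, 36.99 and 31.42 with low pH alone, 114.49, 98.22 and 105.95 with copper alone and 39.04, 73.74 and 56.96 with both (interaction -1.96, SE 0.28, limma adjusted p = 0.00034). With both treatments it stayed under every library with copper alone, as did its neighbours Cs5g31020 and Cs5g31030.

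**Figure D5:**
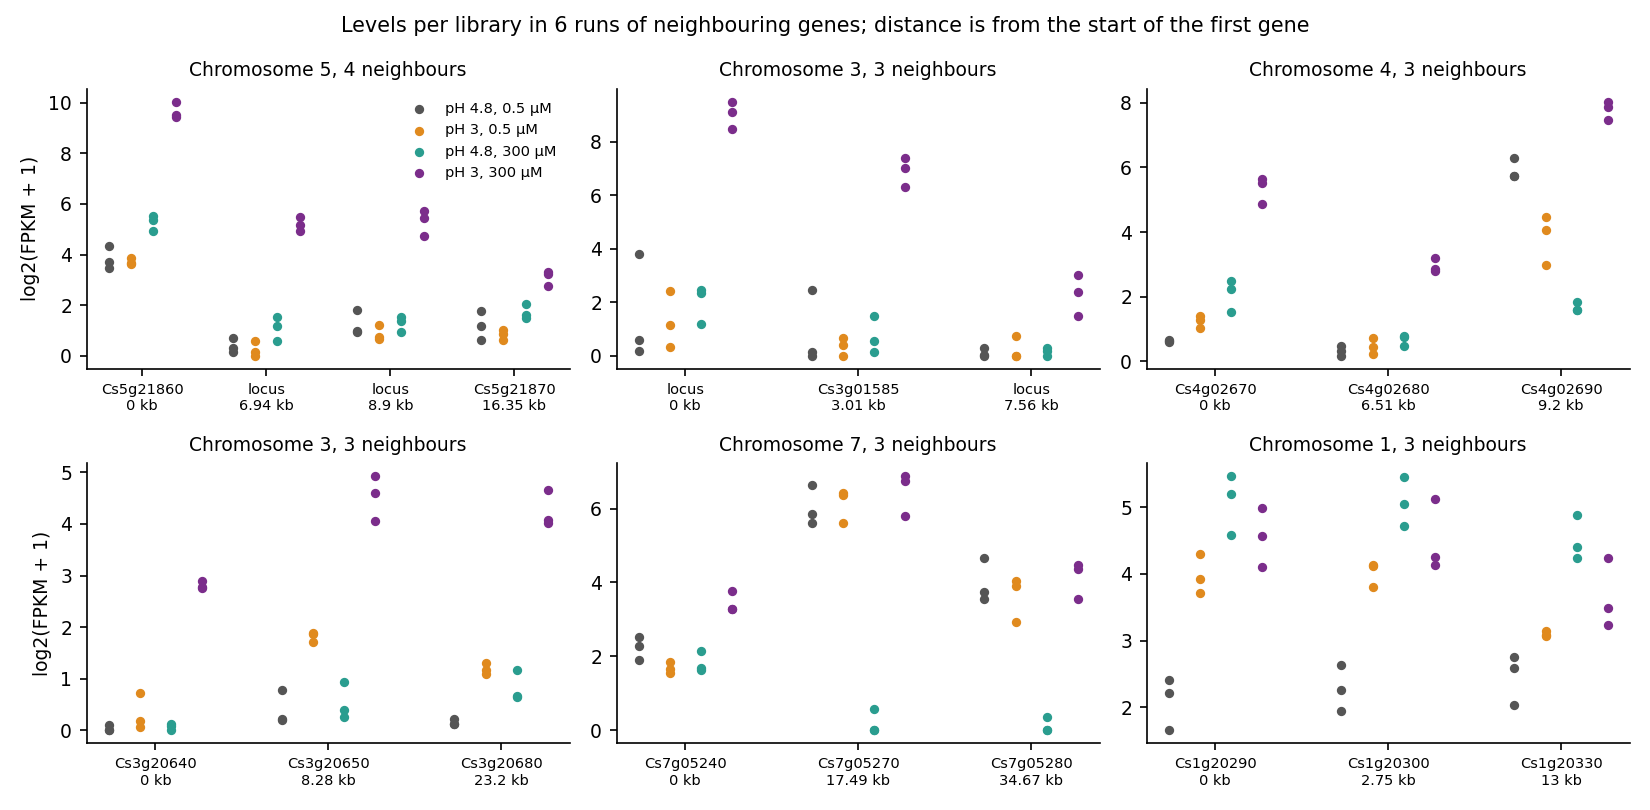
Level in each library in log2(FPKM + 1) (vertical axis) for 6 runs of neighbouring genes, with genes in order along the horizontal axis and their distance in kb from the start of the first; colours are the 4 groups. In the upper panels and the lower left panel the group with both treatments lies highest at every gene, and in the lower middle panel copper alone drops to 0.48 FPKM or less at Cs7g05270 and Cs7g05280.

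An abundant run on unplaced sequence departed without any group near the floor. The gene orange1.1t02091 (32632824 to 32635353) was at 608.43, 852.29 and 696.12 FPKM in control, 421.77, 376.86 and 372.54 with low pH alone and 149.23, 119.05 and 148.79 with copper alone, and stood at 237.17, 227.06 and 253.44 with both (interaction 1.65, SE 0.17, limma adjusted p = 3.3e-05). Its neighbour orange1.1t02087 (32605017 to 32606345) followed in the same order of groups, at 665.77, 826.64 and 749.96, then 505.44, 426.48 and 420.95, then 191.76, 145.41 and 191.82, and 300.81, 242.20 and 331.18 with both (interaction 1.45, SE 0.20, limma adjusted p = 0.00022). In both genes each treatment alone gave less than control, and both treatments gave more than copper alone, with no overlap. The third gene of the run, an assembled locus (32639563 to 32639919), kept this order at 386.34 to 488.90 FPKM in control, 142.34 to 183.08 with low pH alone, 43.28 to 48.43 with copper alone and 89.90 to 92.58 with both.

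Additivity can also be taken on the linear scale. Of the 3991 called genes, 3967 lay on the same side when FPKM means were added directly, and 24 lay on the other. A fit to linear FPKM called 4112 genes, 3355 of them among the 3991 and on the same side. Libraries with both treatments were the most variable, with a median SD per gene of 0.179 log2 units. In the remaining groups it was 0.115 to 0.126. With library weights set by group, where theirs was 0.548 and the others 1.09 to 1.31, 3946 genes were called, 3805 of them among the 3991. The split into classes moved more than the total. Copper was called at pH 4.8 alone for 1863 genes (1697 in the report's fit) and at pH 3 alone for 677 (824). It was called in opposite directions for 377 (402) and in the same direction for 977 (1030).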

How the data were processed

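The authors deposited a separate table for each library, which lists FPKM rounded to 2 decimals beside the coordinates and strand of 20122 genes. Tools named without a role in the submitters' processing notes are DESeq2 1.22.1, StringTie 1.3.4d, featureCounts 1.6.2, HISAT2 2.1.0 and fastp 0.19.3. The sources used here do not give the build, annotation, strand setting or treatment of reads with several matches, so near-identical copies and overlapping genes are uncertain. Groups were taken from the treatment label. Titles of the control samples give 5 µM copper where the treatment label and the design text give 0.5 µM, which was used.

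From the files, log2(FPKM + 1) was fitted in limma 3.58.1 (R 4.3.3) with a mean per group, all 12 libraries and a variance trend. The interaction and the copper and low-pH differences came from this fit, two-sided, with Benjamini-Hochberg adjustment over 19204 genes. Fold sizes on this scale understate changes of low genes. The fit was tested on simulated data with the same spread in every group, which does not check the larger spread of libraries with both treatments. P-values measure spread among pools of seedlings. Depth was recovered by matching FPKM times gene span, for spans under 900 bp and values under 6 FPKM, to whole fragments. At the best depth 76.1% to 79.0% of values came within 0.15 of a whole number, too few to rebuild counts. The members, classes, lists and naming rule were chosen with earlier results of these data known. The naming rule took, per class, the 2 largest departures among genes called in every fit without a library and reaching 5 FPKM. Gene lists by function stayed empty for want of gene names.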

Additional observations from a re-analysis of the deposited data

Results flagged for a closer look

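The copper difference itself differed between pH 3 and pH 4.8 by the interaction test in limma for 3991 genes, and each named gene is among them. Above the additive level were Cs4g02690 (8.21), Cs9g08680 (7.13), Cs2g06910 (7.02), Cs3g01585 (6.69) and Cs5g21860 (4.52), the assembled loci on chromosome 3 from 767533 (7.25) and on chromosome 5 from 24366991 (4.25), and Cs7g32150 (3.50) and Cs3g21660 (3.15), all in log2 units. The gene orange1.1t05521 had a fitted value of 8.11, which is no bound because the libraries with copper alone are listed at 0. It became 11.4 with a pseudocount of 0.1.

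Below the additive level were Cs1g19920 (-3.15), Cs7g01050 (-3.12), orange1.1t05560 (-2.91), Cs8g19970 (-2.86), Cs8g09790 (-2.84), Cs3g14240 (-2.51), orange1.1t01610 (-2.24), Cs1g05680 (-2.23), Cs1g25570 (-1.95) and Cs6g14070 (-1.74).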

How the results depend on the processing

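The 20 named genes kept their side in every alternative run, and each stayed called in all but 1 case: orange1.1t05521 on linear FPKM had an adjusted p of 0.055 in limma. They were chosen for being called without each library, so that part is no sign of stability. An adjusted p under 0.01 gave 2317 interaction genes, 1294 above and 1023 below, with 152 reversed, 1104 at pH 4.8 alone, 539 at pH 3 alone and 475 at both in the same direction. A test of an interaction larger than 0.5 (limma treat) gave 926 genes, 602 above and 324 below, 896 of them of a size of at least 1, with 231, 276, 162 and 257 in those classes, 13 runs and a share with the larger copper difference at pH 4.8 of 65.4%. That share was 68.3% in the report's fit (2726 of 3991 genes, 95% Wilson interval 66.8% to 69.7%, which treats genes as independent), 66.6% on linear FPKM and 70.6% with a filter at 5 FPKM. It was not taken over all tested genes, of which copper was called for 52% at pH 4.8 and 36.3% at pH 3. The share is therefore not shown to be particular to the interaction genes. The interaction's share of the sum of squares was 17.6% with a pseudocount of 0.1 and 16.4% on linear FPKM, and the runs numbered 45 with that pseudocount. Without each library in turn the called genes numbered 3197 to 4396, the share at pH 4.8 was 65.7% to 69.8%, and the interaction's share of the sum of squares was 14.7% to 16.6%. The cause of these shifts was not tested. The 2 stricter thresholds can only remove calls. At 0.01 this holds for the copper calls as well, so a gene still called in the interaction can change class. With a pseudocount of 0.1 the root mean squares were 1.237 for the additive sum and 0.952 for both treatments, and without each library 0.897 to 0.948 and 0.712 to 0.762.

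The replicate block gave 4106 genes, 3790 of them among the 3991. Same-numbered libraries of different groups correlated at -0.218 to 0.238 in their deviations, over 0.1 in 7 of 18 pairs. Those with different numbers correlated at -0.322 to 0.321. Of 12 libraries, 7 correlated best with their own number. These values do not decide whether the numbers mark pairs, and the report's fit did not take them as pairs. The class counts, run counts and sizes were added to the alternatives after seeing the data, as was the choice of runs described. Depth limits genes that span 1 kb near 0.132 to 0.169 FPKM, and shorter genes at higher values.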
